A study of Homo sapiens with 6 samples.

Results

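The bone morphogenetic protein (BMP) genes were read in cells sorted by the surface receptor CD44, all from COLO-320DM, an established line of human colorectal cancer. The set held 10 genes: the ligands BMP2, BMP4 and BMP7, the receptors BMPR1A and BMPR2, the secreted antagonists GREM1 and NOG, and the pathway's target genes ID1, ID3 and SMAD6. They were found by symbol among the probe sets that the platform annotation assigns to a single gene. This gave 22 probe sets for 9 genes, of 54613 probe sets and 19775 genes on the array. No probe set was assigned to BMPR1A, which was not analysed here. The series compared 3 arrays of CD44-positive with 3 arrays of CD44-negative cells, each group numbered 01, 02 and 03. All cells were of this one line and untreated. Whether the numbers stood for separate cultures was not stated, and p-values cover the spread among these arrays alone, which could be technical. Values are log2 intensities, differences are CD44-positive minus CD44-negative, and errors are the SD over 3 arrays for a level and limma's standard error (SE) for a difference.

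BMP ligands are secreted dimers that bring type I receptors, such as BMPR1A, together with the type II receptor BMPR2. The active receptors phosphorylate SMAD1, SMAD5 and SMAD9, which enter the nucleus with SMAD4 and induce target genes. Among these are the ID genes, whose products bind and block basic helix-loop-helix transcription factors, and SMAD6, an inhibitor that feeds back on the pathway. GREM1 and NOG bind the ligands outside the cell and keep them from their receptors. In the intestine BMP signalling is strongest away from the crypt base and restrains stem cells, while antagonists, GREM1 among them, come largely from the cells that surround the crypts.

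The bases upstream of the start site are shown for the antagonist with the widest spread between arrays and for the 3 target genes, since SMAD proteins act on such regions. Each run covers the 250 bases before the start, 5′ to 3′ on the gene's strand, from RefSeq (GRCh38.p14). Capitals mark GGCGCC, a GC-rich motif bound by SMAD1 and SMAD5, and GTCT, the core of the SMAD-binding element, which reads AGAC on the other strand.
GREM1, chr15:32717754-32718003, plus strand: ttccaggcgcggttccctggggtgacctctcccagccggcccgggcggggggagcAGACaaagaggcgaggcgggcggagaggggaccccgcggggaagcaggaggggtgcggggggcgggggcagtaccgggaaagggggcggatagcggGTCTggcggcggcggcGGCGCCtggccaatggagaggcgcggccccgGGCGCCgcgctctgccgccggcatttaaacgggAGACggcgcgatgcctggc
ID1, chr20:31605039-31605288, plus strand: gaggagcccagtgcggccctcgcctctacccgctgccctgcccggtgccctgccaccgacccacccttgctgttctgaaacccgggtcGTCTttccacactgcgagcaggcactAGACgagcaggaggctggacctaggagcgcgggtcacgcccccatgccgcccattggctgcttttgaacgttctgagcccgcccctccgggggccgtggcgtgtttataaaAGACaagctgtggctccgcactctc
ID3, chr1:23559502-23559751, minus strand: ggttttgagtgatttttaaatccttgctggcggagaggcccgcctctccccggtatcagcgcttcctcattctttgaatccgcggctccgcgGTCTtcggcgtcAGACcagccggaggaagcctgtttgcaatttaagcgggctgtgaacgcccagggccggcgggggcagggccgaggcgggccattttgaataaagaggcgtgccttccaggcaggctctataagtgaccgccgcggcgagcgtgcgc
SMAD6, chr15:66701986-66702235, plus strand: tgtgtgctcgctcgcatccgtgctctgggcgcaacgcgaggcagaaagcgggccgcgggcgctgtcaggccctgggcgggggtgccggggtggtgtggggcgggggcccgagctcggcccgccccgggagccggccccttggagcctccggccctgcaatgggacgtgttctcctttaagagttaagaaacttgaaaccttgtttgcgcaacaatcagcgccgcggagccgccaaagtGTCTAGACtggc
GREM1, for which the table also held a window at another start, had both motifs, with 2 copies of GGCGCC and 3 of GTCT. ID1 had 3 copies of GTCT, and ID3 and SMAD6 had 2 each, with none of GGCGCC in these windows. In SMAD6 the 2 copies of GTCT lay on opposite strands and adjoined to form the palindrome GTCTAGAC, which begins 12 bases before the start. Of 35116 windows of the same length, 77.5% held GTCT, 16.4% held GGCGCC and 0.182% held GTCTAGAC. The table held 10 windows for 7 of the 10 genes.

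No BMP gene passed the test between the sorts, though the groups did not overlap in ID3 and in the dim NOG. A gene was represented by its brightest probe set, and 7 genes lay above the dim limit, the 30th percentile of gene means at 5.12. BMP2 and NOG lay below it. Of the 7 tested, 0 passed limma's test at an adjusted p of 0.05 (Benjamini-Hochberg over 13842 genes), where the share of all genes called was 0%. At an unadjusted p under 0.05 there were 0 of 7, against 1.97% of all genes. Each of the 7 had an adjusted p of 1.00, and with same-numbered arrays as pairs (replicate block) the smallest was 0.531, where 0.0578% of all genes were called. Over the 9 genes, dim ones included, 8 were higher on average in the CD44-positive cells, with a median difference of 0.11, against 49.7% of all genes and a median of -0.00082. Without CD44-positive array 02 the count was 5 of 9. The same 9 genes had 8 higher in pair 01, 6 in pair 02 and 5 in pair 03.

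**Figure D1:**
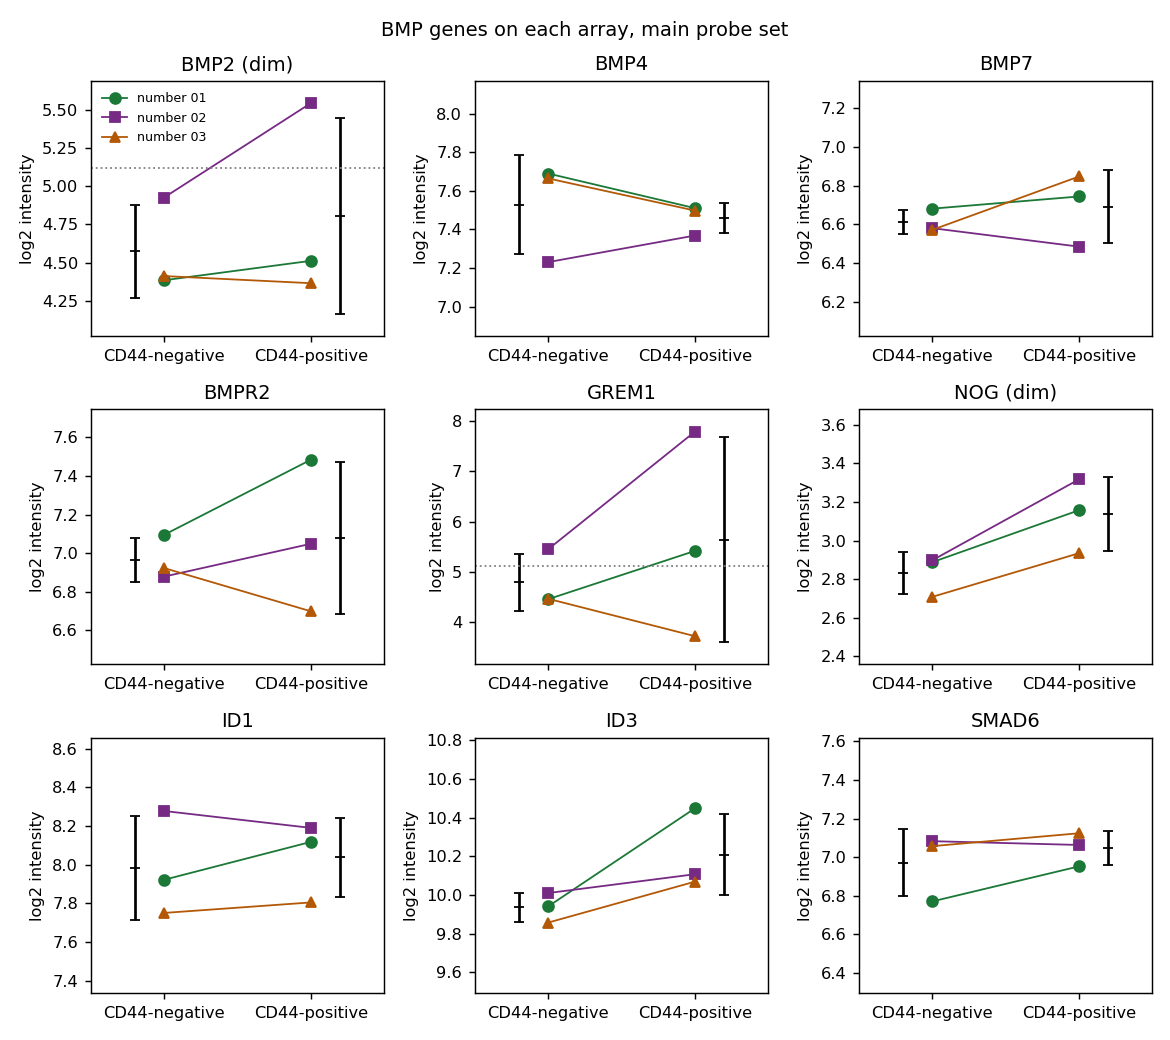
Log2 intensity (vertical axis, its range set for each gene) of the 9 BMP genes on each array, with lines joining same-numbered arrays, black bars for the mean and SD of 3 arrays and a dotted line for the dim limit of 5.12. GREM1 spans 3.73 to 7.79 in the CD44-positive arrays alone, and only in ID3 and NOG do all CD44-positive arrays lie above all CD44-negative arrays.

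GREM1, the ligand antagonist, had the largest difference and by far the widest spread. Its brightest probe set read 5.42, 7.79 and 3.73 on CD44-positive arrays 01, 02 and 03 and 4.46, 5.45 and 4.47 on the CD44-negative arrays. CD44-positive arrays thus gave both the highest and the lowest value of all 6, and the groups overlapped. The levels were 5.64 ± 2.04 and 4.79 ± 0.57 (SD, n = 3). CD44-positive cells were thus 1.80-fold higher on average, a difference of 0.85 ± 0.87 (SE), with a 95% confidence interval from -1.15 to 2.85. Both sorts were highest on number 02. The CD44-negative mean and CD44-positive array 03 lay under the dim limit, so that the size of the difference is approximate. Without CD44-positive array 02 the difference was -0.22, and without CD44-positive array 03 it was 1.81 (adjusted p = 0.986). Its mean over the 6 arrays, 5.22, passed the dim limit only through the CD44-positive group, so its tests are given as values and support nothing. With the replicate block the adjusted p was under 0.05 only when pair 03 was left out, at a difference of 1.65 (adjusted p = 0.0103, or 0.0689 in the fit of all probe sets without a dim limit). Without pair 03, 127 of all genes tested were called with the block, against 8 with all pairs. The GREM1 difference was 0.11 without pair 02. The second GREM1 probe set, dim on average, read 4.74, 7.17 and 3.80 in the CD44-positive and 3.73, 4.99 and 4.54 in the CD44-negative arrays. It gave a like difference of 0.82 ± 0.73, again with CD44-positive array 02 far above the rest. The SD of GREM1 over the 6 arrays, 1.42, was at the 99.96th percentile of all genes tested, whose median was 0.13.

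GREM1 is known from fibroblasts, so markers of that cell type are given beside it. Of 12 fibroblast markers 7 lay above the dim limit, while COL6A3, LUM, PDGFRA, FAP and POSTN did not. The summed intensity of the 12 was 1733 to 3847 in the CD44-positive and 1386 to 2428 in the CD44-negative arrays. COL3A1, a fibrillar collagen, made up 50.6% to 83.8% of this sum. It read 11.63, 10.02 and 11.60 in the CD44-positive and 10.61, 9.45 and 10.85 in the CD44-negative arrays, lowest on number 02 in both sorts. S100A4, of the same list, was highest on number 02 in both, at 6.73, 7.52 and 6.72 against 5.64, 7.20 and 5.99. The fibroblast markers thus did not share 1 pattern over the numbers. Without COL3A1, a sum taken after the values were seen, the range was 599.8 to 691.8 against 577.4 to 684.3. The groups did not overlap in 3 of the 12 fibroblast markers, with the CD44-positive values above in 2 and below in 1. Of all 19775 genes, dim ones included, 639 were apart in the first direction and 597 in the second. The proteoglycan gene LUM read 5.63, 4.18 and 3.84 in the CD44-positive and 2.36, 2.79 and 2.44 in the CD44-negative arrays, over the dim limit on CD44-positive array 01 alone. The collagen gene COL1A2 was also higher, at 5.36, 5.35 and 5.50 against 5.03, 5.04 and 5.20. Its group means, 5.40 and 5.09, fell on opposite sides of the dim limit, which COL1A2 cleared because of the CD44-positive arrays. COL1A1, which encodes the partner chain of COL1A2 in type I collagen, was lower in the CD44-positive cells, at 7.76, 7.73 and 7.45 against 7.95, 7.85 and 7.85. The part of these markers in the GREM1 values was not tested. The sums were 363 to 400 against 363 to 391 for 10 endothelial markers, with CDH5, KDR, TIE1 and EMCN dim. For the 8 leukocyte markers with a probe set they were 412 to 451 against 426 to 470, with CD14, LYZ and CD52 dim. Of 10 neuroendocrine markers 9 had a probe set and 4 lay above the dim limit, SYP, NCAM1, ENO2 and UCHL1. The summed intensity of the 9 was 7373 to 7755 against 6781 to 7879, of which UCHL1, a ubiquitin hydrolase of neurons, made up 96.3% to 97.6%, while CHGA, CHGB, INSM1, SCG2 and SCG5 were dim. ENO2, the neuronal enolase, read 4.79, 6.58 and 4.88 in the CD44-positive and 4.01, 6.36 and 4.43 in the CD44-negative arrays. It was highest on number 02 in both sorts, as GREM1 was. Its group means, 5.42 and 4.93, fell on opposite sides of the dim limit of 5.12. Of the other bright markers UCHL1 was also highest on number 02 in both, at 12.86, 12.87 and 12.81 against 12.83, 12.89 and 12.69. NCAM1 was not, at 6.15, 6.09 and 6.02 against 6.03, 6.07 and 5.93. SYP, the one of the 9 whose groups did not overlap, was not either, at 5.53, 5.59 and 5.55 against 5.38, 5.31 and 5.47. The part of this list in the GREM1 values was not tested either. In bulk RNA, more cells with a transcript and more of it per cell cannot be told apart.

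NOG, the other antagonist, was dim on every array. It read 3.16, 3.32 and 2.93 in the CD44-positive and 2.89, 2.90 and 2.71 in the CD44-negative cells. Every CD44-positive array lay above every CD44-negative array, but all 6 values were well under the dim limit of 5.12. With the target gene ID3, NOG made 2 of 9 genes whose groups were apart in this direction, against 3.23% of all genes, dim ones included. In a fit of all 54613 probe sets the difference was 0.30 ± 0.12 (SE), with a 95% confidence interval from 0.029 to 0.58, and limma's p was 0.0338 unadjusted and 1.00 adjusted. An exact permutation test over the arrays (two-sided) gave p = 0.1, the smallest that 3 arrays against 3 allow.

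Of the ligands, BMP2 followed the array number more than the sort on the brighter of its 2 probe sets. This one read 4.51, 5.55 and 4.36 in the CD44-positive and 4.38, 4.93 and 4.41 in the CD44-negative arrays. Number 02 was the highest in both groups, and only its CD44-positive array lay above the dim limit. The difference was 0.23 ± 0.29 in the fit of all probe sets (SE, adjusted p = 1.00), and -0.14 without CD44-positive array 02. The second BMP2 probe set, also dim, read 3.94, 4.68 and 3.68 against 3.65, 3.91 and 3.53, so that CD44-positive array 02 was again the highest of the 6. It differed more between the sorts, by 0.40 ± 0.23 (SE), and was higher in each pair, though the groups overlapped. With the replicate block its adjusted p in limma's test was 0.635.

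BMP4, a ligand made by many epithelia and colorectal cancers, was the one gene of the 9 with a lower mean in the CD44-positive cells. Its single probe set read 7.51, 7.37 and 7.50 against 7.69, 7.23 and 7.66. Number 02 gave the lowest value in both sorts, opposite to GREM1 and BMP2, and the groups overlapped. The difference was -0.069 ± 0.13 (SE, 95% interval -0.38 to 0.24), and its sign turned to 0.011 without CD44-negative array 01.

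BMP7, the third ligand, had 4 probe sets, of which 2 were above the dim limit and 2 were not. The brightest read 6.74, 6.48 and 6.85 in the CD44-positive and 6.68, 6.58 and 6.57 in the CD44-negative arrays, a difference of 0.081 ± 0.11 (SE, 95% interval -0.18 to 0.34). The other bright one gave 5.87, 5.79 and 5.82 against 6.01, 5.87 and 5.93, a difference of -0.11 ± 0.091. The 2 probe sets thus pointed in opposite directions, and neither separated the groups.

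BMPR2, the type II receptor, had 6 probe sets that did not vary alike. The brightest read 7.48, 7.05 and 6.70 in the CD44-positive and 7.10, 6.88 and 6.92 in the CD44-negative arrays. The CD44-positive arrays enclosed the range of the others, and the difference was 0.11 ± 0.18 (SE, 95% interval -0.31 to 0.54), or -0.092 without CD44-positive array 01. Probe set 210214_s_at read 6.46, 6.44 and 5.58 against 6.27, 6.55 and 5.56. Here both arrays of number 03 were lower than the other 4 and the sorts differed by only 0.037 ± 0.29. Probe set 231873_at, at 6.67, 6.40 and 6.50 against 6.43, 6.02 and 6.29, differed by 0.27 ± 0.13. It was higher in each pair, yet the lowest CD44-positive value lay under the highest CD44-negative value, and its adjusted p was 1.00, or 0.635 with the replicate block. Of the other 3 probe sets 209920_at, above the dim limit, differed by 0.078 and the 2 dim ones by -0.053 and 0.12.

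ID3 was the one bright gene of the set whose groups did not overlap. It read 10.45, 10.11 and 10.07 in the CD44-positive and 9.94, 10.01 and 9.86 in the CD44-negative arrays. The lowest CD44-positive value was above the highest CD44-negative value by a small margin, and number 01 carried the largest pair difference, 0.51, against 0.097 and 0.21 in pairs 02 and 03. The difference was 0.27 ± 0.12 (SE), or 1.21-fold, with a 95% interval from -0.0028 to 0.55. Limma's unadjusted p was 0.0518, and p was 0.1 by the exact permutation test (two-sided). With the replicate block the unadjusted p was 0.0198, the only one of the 7 genes under 0.05 in that fit, where 7.49% of all genes were. Of all genes tested, 2.82% had groups apart in this direction, and the count here was 1 of 7. The sign was the same in every alternative run, from 0.15 to 0.36.

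ID1, which encodes a close relative of ID3, did not show this separation. It read 8.12, 8.19 and 7.80 in the CD44-positive and 7.92, 8.28 and 7.75 in the CD44-negative arrays. Number 02 was the highest and number 03 the lowest in both sorts, and the CD44-negative values enclosed the CD44-positive ones. The difference was 0.054 ± 0.16 (SE, 95% interval -0.31 to 0.42), and its sign turned without CD44-positive array 02 (-0.022) or CD44-negative array 03 (-0.062). Whether ID1 and ID3 differed in their response to the sort was not tested.

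SMAD6, the inhibitory SMAD, had 4 probe sets, 3 of them above the dim limit. The brightest read 6.95, 7.06 and 7.12 in the CD44-positive and 6.77, 7.08 and 7.06 in the CD44-negative arrays, a difference of 0.076 ± 0.11 (SE, 95% interval -0.18 to 0.33). The other bright probe sets differed by 0.0029 ± 0.12 and 0.036 ± 0.099 and the dim one by -0.10 ± 0.095. None of the 4 separated the groups.

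**Figure D2:**
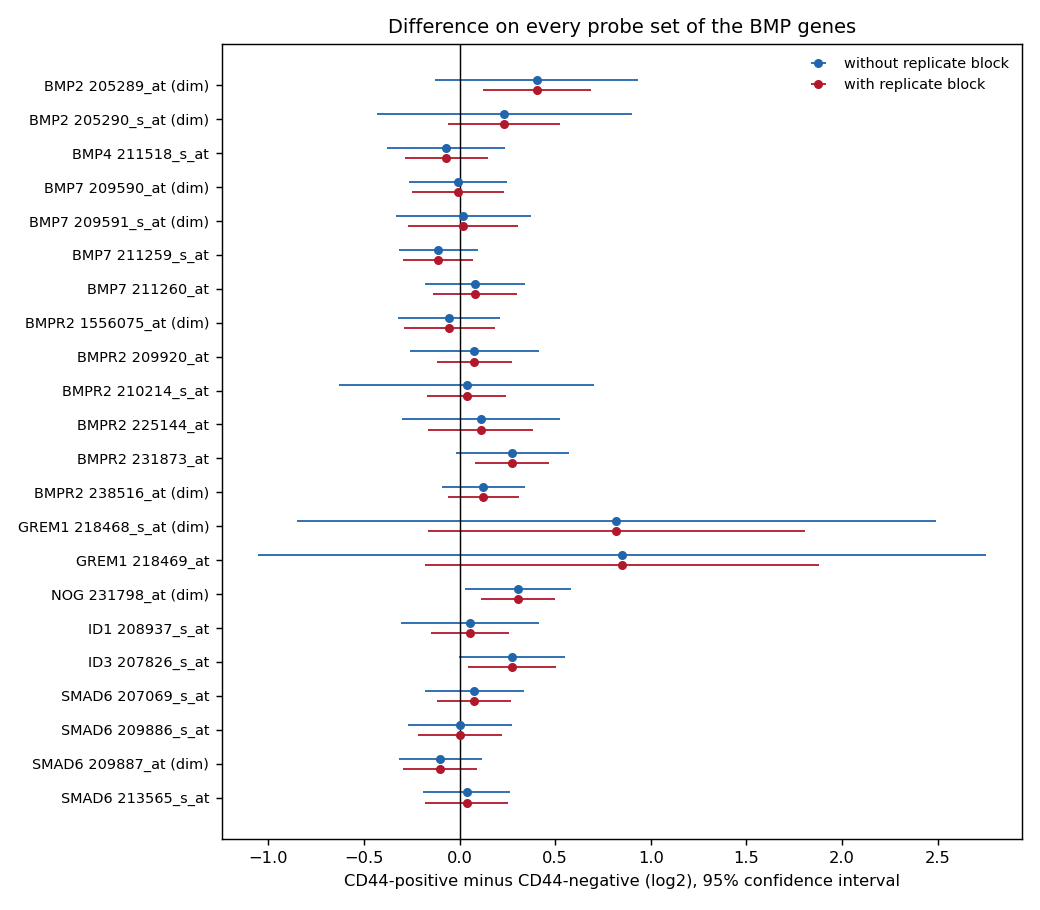
Difference between the sorts (horizontal axis, log2) with its 95% confidence interval for each of the 22 probe sets, from limma fits of all 54613 probe sets without and with the replicate block. The GREM1 intervals are the widest, and no probe set passed after adjustment in either fit.

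Across the 22 probe sets 17 were higher and 5 lower on average in the CD44-positive cells, and 13 were above the dim limit. None was called without the block, where 0.00916% of all probe sets were, or with it, where 0.0513% were. At an unadjusted p under 0.05 there were 1 without the block, of NOG, against 2.35% of all, and 4 with it, of BMP2, BMPR2, NOG and ID3, against 6.4%. The groups were apart in 2, of NOG and ID3 and both higher, against 3.41% of all probe sets in that direction. Probe sets of one gene share their RNA and are not independent.

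The array number was then set against the sort, in a test chosen after the values had been seen. In the blocked fit an F test asked whether the 3 numbers differed. Among the 7 tested genes 0 passed after adjustment, against 10.3% of all genes, and 4 had an unadjusted p under 0.05 (BMP4, BMPR2, GREM1 and ID1), against 32.4%. The adjusted p was 0.0528 for ID1 and 0.0610 for GREM1. Over all probe sets 2 of the 22 passed, against 4.16%: 205290_s_at of BMP2 (adjusted p = 0.0345) and 210214_s_at of BMPR2 (adjusted p = 0.0100). Differences between numbers were thus common over all genes on these arrays, while 0 of the 7 tested BMP genes passed. GREM1 entered this test only through its CD44-positive arrays, and the BMP2 probe set is dim. The labels do not say what a number stands for.

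**Figure D3:**
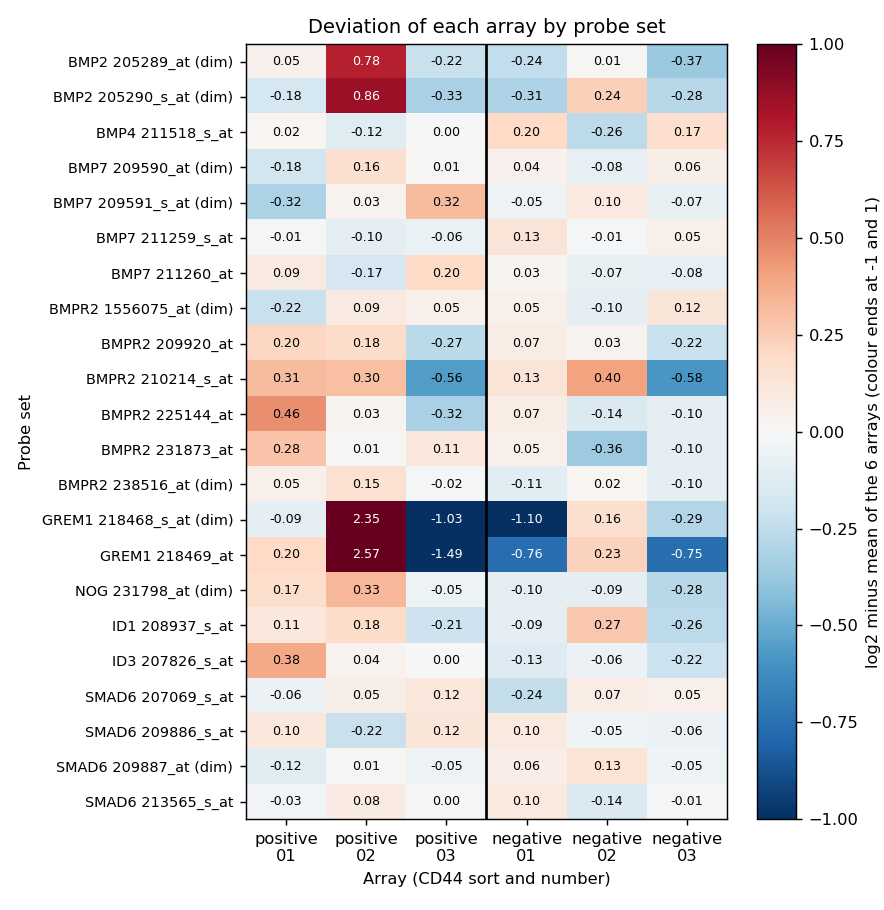
Deviation of each array from the mean of the 6 arrays (colour and printed value, log2) for the 22 probe sets, with the CD44-positive arrays left of the line. CD44-positive array 02 stands out in both GREM1 and both BMP2 probe sets, and both arrays of number 03 are low in one BMPR2 probe set.

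The genes most like a member were sought for the 3 members with the largest SD, by Pearson's r over the 6 arrays among the 13842 genes tested. With GREM1 these were CIBAR1 (r = 0.999), HSD17B6 (0.994) and XKR8 (0.983), and 154 genes had r over 0.9. Without CD44-positive arrays 02 and 03, the 2 farthest from the GREM1 median, r was 0.999, 0.946 and 0.953. With BMP2 they were KIF1A (0.994), IL13RA2 (0.991) and HUNK (0.986), which were at 0.810, 0.727 and 0.718 without the 2 arrays of number 02. With BMPR2 they were RNF14 (0.994), METAP1 (0.990) and C10orf12 (0.988), with 0.971, 0.952 and 0.916 without CD44-positive arrays 01 and 03. The r values rest on 6 arrays, each from the top of a long ranked list, and are given as a description.

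The rest of the pathway was read from lists by role. Of 59 further genes 57 had a probe set and 46 were tested. None passed, without or with the replicate block, and the smallest adjusted p values were 1.00 and 0.124. At an unadjusted p under 0.05 there were 5, all higher in the CD44-positive cells, against 1.24% of all genes in that direction. With the replicate block there were 9, of which 7 were higher and 2 lower (ACVR2B and SOSTDC1), against 7.49% of all genes in either direction. Of the 46, 28 were higher on average (60.9%, against 48.9% of all genes tested) and the median difference was 0.030, against -0.0025. The groups were apart in 4 (MSX1, NBL1, BAMBI and PPM1A), all higher, where 2.82% of all genes were apart in that direction.

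The other target genes held the largest values, with 8 of 9 higher on average and a median of 0.16. MSX2, a homeobox factor induced by BMP, read 6.91, 7.37 and 6.05 in the CD44-positive and 5.49, 6.69 and 5.48 in the CD44-negative arrays. It was higher in each pair, but CD44-negative array 02 exceeded CD44-positive array 03. The difference was 0.89 ± 0.40 (SE, adjusted p = 1.00, with the replicate block 0.144), and with the block it passed without pair 02 (a difference of 1.00, adjusted p = 0.0121) and without pair 03 (1.05, adjusted p = 0.00920). Its relative MSX1, named after its values were seen, read 10.18, 10.22 and 9.78 against 9.59, 9.75 and 9.45. Its groups did not overlap, and the difference was 0.46 ± 0.14 (adjusted p = 1.00, with the block 0.140, and 0.0244 with the block but without pair 03). With the block, 63 of all genes tested were called without pair 02 and 127 without pair 03, against 8 with all pairs. On MSX1 probe sets without a suffix for shared transcripts the difference was 0.26. SMAD7, the second inhibitory SMAD and a target of TGF-beta as well as of BMP, read 6.45, 6.06 and 6.41 against 5.93, 5.46 and 6.08, higher in each pair but with overlap between the groups. Its difference was 0.48 ± 0.18 (adjusted p = 1.00, with the block 0.124). ID2, a further ID gene, differed by 0.12 ± 0.12 and ID4, with the opposite sign, by -0.072 ± 0.14.

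Among the other antagonists and modulators 7 of 10 were higher, with a median of 0.077. NBL1, a secreted antagonist related to GREM1, read 7.17, 6.99 and 6.85 in the CD44-positive and 6.75, 6.77 and 6.61 in the CD44-negative arrays, without overlap, a difference of 0.30 ± 0.11 (SE, adjusted p = 1.00). BAMBI, a decoy receptor without a kinase, read 9.90, 9.85 and 9.62 against 9.43, 9.61 and 9.54, also without overlap, and differed by 0.26 ± 0.10 (adjusted p = 1.00). Neither passed with the replicate block, at 0.335 and 0.530. SOSTDC1, of the same list, went the other way, at 6.69, 6.37 and 6.25 against 7.05, 6.51 and 6.53. It was lower in each pair, with overlap between the groups. The difference was -0.26 ± 0.17 (SE), with an adjusted p of 0.421 in limma's test with the block. SMADs and regulators were split evenly, 6 of 12 higher, with a median of -0.017. PPM1A, a phosphatase that acts on SMADs, differed by 0.22 ± 0.091 and SMAD5 by 0.097 ± 0.13.

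Receptors and co-receptors lay slightly the other way, with 7 of 9 lower and a median of -0.046. ACVR2B, a type II receptor, differed by -0.18 ± 0.13 and the co-receptor RGMB by -0.15 ± 0.14. The other ligands showed the least, with 5 of 6 higher but all between -0.011 and 0.061, BMP8B at 0.061 ± 0.090 and BMP6 at 0.060 ± 0.18. All of these had an adjusted p of 1.00.

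**Figure D4:**
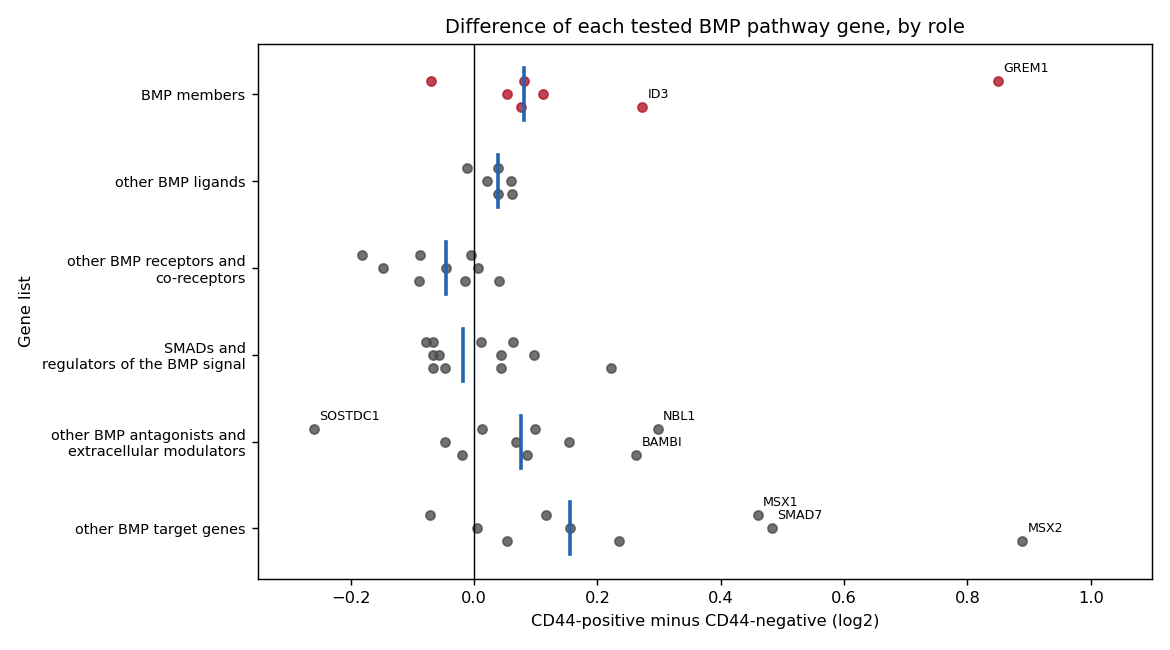
Difference between the sorts (horizontal axis, log2) of each tested gene by list, with the 7 tested members in red, the other genes in grey and list medians as blue lines; genes beyond 0.25 in size are named. GREM1 at 0.85 and MSX2 at 0.89 lie apart from the rest, and no gene passed the test.

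The sort and the cell type were checked on the same arrays. CD44 was higher in each CD44-positive array, by 2.47 ± 0.24 (SE, adjusted p = 0.106, with the replicate block 0.00176). Of 12 markers of colorectal epithelium 9 lay above the dim limit, the intestinal factor CDX2 and the keratins KRT8 and KRT18 among them, while EPCAM, CDH1 and KRT19 were dim in both sorts. The groups were apart in 1 of the 12 markers that was higher in the CD44-positive cells and 1 that was lower. Of all 19775 genes, dim ones included, 639 were apart in the first direction and 597 in the second. KRT20 was the marker that was higher, at 6.67, 7.23 and 7.02 against 6.33, 6.10 and 6.60. The dim EPCAM was lower, at 4.49, 4.63 and 4.08 against 4.90, 4.98 and 4.74. The median intensity of the arrays was 44.9 to 46.5, and log2 values correlated between arrays at 0.991 to 0.997. The number of arrays limits the precision of every value.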

How the data were processed

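The labels describe biotin-labelled RNA on Affymetrix arrays. The authors deposited linear intensity values to which RMA had been applied, which subtracts background, equalises the arrays' distributions and summarises probes by set, per the submitters' processing notes; its version was not given in the sources used here. Log2 was taken without a pseudocount. RMA compresses differences near the background. Of 54675 probe sets 62 were controls, 41091 had 1 gene in the platform annotation, 1801 several and 11721 none. Symbols were updated through gene IDs for 41037, and 54 kept theirs. Each of 19775 genes took the probe set with the highest mean, and 5933 dim ones (under the 30th percentile) were left out, the rest being fitted with limma 3.58.1 in R 4.3.3 (lmFit, eBayes), two-sided, with Benjamini-Hochberg adjustment at 0.05. All 54613 probe sets without controls were fitted likewise, with no filter. Tests were first run on simulated data. Figures used matplotlib 3.10.9.

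Deviations from the group means correlated at 0.465, 0.689 and 0.626 between same-numbered arrays, so the numbers were taken as pairs; this pairing comes from the data, and the unblocked fit is the main one. Members and gene lists were chosen with earlier results of these data known. Named were all members, of each other list the genes that passed or else the 2 with the largest differences, the 3 genes most like the 3 most variable members, and CD44. MSX1, ID2, ID4, SOSTDC1 and the test of array numbers were added after values were seen. Alternatives were the replicate block, median centring, quantile normalization, other dim limits, the mean of probe sets, probe sets without suffix, a variance trend, array weights and leaving out arrays.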

Additional observations from a re-analysis of the deposited data

How the results depend on the processing

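No member and no other BMP pathway gene was called under any alternative that kept all 6 arrays, the replicate block included (0 members called), or that left out 1 array. With the block and 1 pair left out, the count of members called ranged from 0 to 1 (GREM1, without pair 03, a gene that passed the dim limit only through the CD44-positive group), that of member probe sets from 0 to 1 (218468_s_at of GREM1) and that of other pathway genes from 0 to 3 (MSX1, MSX2 and SMAD7 without pair 03, MSX2 without pair 02). Over all genes tested, these runs called 10 without pair 01, 63 without pair 02 and 127 without pair 03, against 8 with all pairs. Over all probe sets they called 25 without pair 01, 87 without pair 02 and 85 without pair 03, against 28 with all pairs. The number of the 9 members that were higher ranged from 5 to 8 over the arrays left out, in an alternative chosen after seeing the data. With arrays or pairs left out the differences ranged from -0.22 to 1.81 for GREM1, -0.14 to 0.45 for BMP2, -0.22 to 0.011 for BMP4, -0.016 to 0.19 for BMP7, -0.092 to 0.30 for BMPR2, -0.062 to 0.20 for ID1, -0.023 to 0.13 for SMAD6 and -0.10 to 0.23 for BMP6, so each changed sign. With the block and without pair 01 BMPR2 was -0.027 and ID1 -0.017. BMP7 was also -0.0045 with the mean of its probe sets and -0.042 with array weights, and SMAD6 was -0.10 on its probe set without suffix, which is dim. Array weights gave 2.02 for GREM1. ID3, NOG and the other named pathway genes kept their sign throughout, apart from ID2, ID4 and SOSTDC1, whose differences were not followed here. SMAD7 passed with the block without pair 03 (0.56, adjusted p = 0.0177). The cause of these changes was not tested. With 3 arrays in a group, 2 members dim and values near background compressed, small differences could not be resolved.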
